A study of Homo sapiens with 20 samples.

Results

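The regions described here are stretches of chromatin marked by acetylated histone H3 at lysine 27 (H3K27ac) that lie at the start sites of protein-coding genes. The peak lists of 16 ChIP-seq libraries were merged on the autosomes and chromosome X wherever peaks shared at least 1 bp, which gave 58859 regions. A region was kept as a start-site region when it came within 1000 bp of the canonical start site of a protein-coding gene in GENCODE version 44. This held for 14595 regions, or 24.8% of all, and left 44264 other regions. The choice used position alone. A region exists only because at least 1 library called it, so its being called somewhere is not a finding.

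All libraries came from HCT-116, a human colorectal cancer line, either wild type (WT) or bought as FBXW7-/- cells (KO). FBXW7 is the part of a ubiquitin ligase that recognises proteins to be degraded, and HDAC4 is a class IIa histone deacetylase. Cells had received endoribonuclease-prepared small interfering RNA for 48 h, either a control (esiCT) or one against HDAC4 (esiHDAC4), and were untreated (UNT) or kept for 24 h in 50 µM oxaliplatin (OXPT), a platinum drug that crosslinks DNA. Each of the 8 combinations had 1 library of replicate letter A and 1 of letter B. The paper names A and B as biological replicates. The labels say that independent experiments were pooled, not how these map to the letters, so the p-values measure the spread between these libraries. No source used here gives the number of KO clones.

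H3K27ac is deposited by the acetyltransferases p300 and CBP and marks active promoters and enhancers. At an active promoter the nucleosomes on either side of the start site carry the mark, while the start site itself lies in a nucleosome-depleted gap where transcription factors and RNA polymerase II bind. Most promoters of housekeeping genes lie in CpG islands, whereas histone genes and many inducible genes carry a TATA box just upstream of the start site.

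The sequences just upstream of 5 start sites are shown because the results below turn on these genes. H4C2 (a histone H4 gene) and MYOF (myoferlin, a membrane-repair protein) differed between the genotypes, TRIAP1 (an apoptosis inhibitor induced by p53) was called more often after OXPT, RPL23A (a protein of the large ribosomal subunit) stands for the ribosomal protein genes, and FBXW7 is the gene disrupted in KO cells. Each runs 5′ to 3′ on the strand of its gene in hg38 and ends at the base before the start site. It covers 160 bases, or 59 for TRIAP1, where an annotated exon lies further upstream. Capitals mark a TATA box (TATAAA), a GC box (GGGCGG) or a CCAAT box (CCAAT) on either strand.
H4C2 (chr6:26027284-26027443, minus strand): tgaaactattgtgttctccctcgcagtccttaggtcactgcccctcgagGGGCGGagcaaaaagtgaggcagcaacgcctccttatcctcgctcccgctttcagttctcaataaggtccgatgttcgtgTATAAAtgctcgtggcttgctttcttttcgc
MYOF (chr10:93482335-93482494, minus strand): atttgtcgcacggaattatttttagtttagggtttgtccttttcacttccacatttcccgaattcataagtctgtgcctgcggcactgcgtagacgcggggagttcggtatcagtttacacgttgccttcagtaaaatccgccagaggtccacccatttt
TRIAP1 (chr12:120446385-120446443, minus strand): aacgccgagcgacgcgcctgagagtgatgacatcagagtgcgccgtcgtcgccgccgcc
RPL23A (chr17:28719825-28719984, plus strand): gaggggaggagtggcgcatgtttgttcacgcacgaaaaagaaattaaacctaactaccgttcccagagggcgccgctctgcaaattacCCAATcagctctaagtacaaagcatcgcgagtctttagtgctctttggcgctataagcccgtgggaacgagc
FBXW7 (chr4:152536093-152536252, minus strand): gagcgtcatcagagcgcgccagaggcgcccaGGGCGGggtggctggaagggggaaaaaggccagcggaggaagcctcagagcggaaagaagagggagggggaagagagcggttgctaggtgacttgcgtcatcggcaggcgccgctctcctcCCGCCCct
The H4C2 sequence holds a GC box and a TATA box, that of FBXW7 holds 2 GC boxes and that of RPL23A 1 CCAAT box. In MYOF and TRIAP1 none of the 7 motifs searched was found in these windows. A match describes the letters only and is not evidence of binding.

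The libraries differed in how much they called. Read totals are not part of the lists. As an index of depth, the local background in reads that each peak's deposited fold and p-value imply was used instead. The index of a library was the 1st percentile of this background over its peaks. It was lowest (1.02) in KO esiHDAC4 UNT replicate B and highest (3.07) in WT esiCT UNT replicate B. The 4 KO libraries of letter B called the fewest, with 377 to 2497 start-site regions. WT esiCT OXPT replicate B came next with 3047, and the remaining libraries called 5034 to 11472. KO esiHDAC4 UNT replicate B, with 377, was the shallowest. A start-site region missing from a list is not shown to lack the mark in that library. The deposited lists come from the authors' peak caller, run on each library by itself.

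The label of the line was compared with marker genes. Of 16 markers of colorectal epithelium, 11 had a start-site region and 9 were called in at least 8 libraries, led by KRT18 in 16, KRT8 and KRT19 in 15, and CLDN4 and CLDN7 in 14. GPA33, VIL1, CDH17, LGALS4 and CEACAM5 were not called in any library. Of 17 markers of blood, fibroblasts, endothelium, nerve, liver and muscle, 13 were not called in any library, and COL1A1 and SYT1 were called in 11 each. Among all 19970 start sites, 35.8% were called in at least 8 libraries.

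At the start site of FBXW7 (chromosome 4, position 152536092), a peak was called in 8 of 16 libraries, 5 WT and 3 KO. There were 2 regions, one on either side of the start site, from 152534985 to 152535977 (called in 4 libraries) and from 152536331 to 152537591 (called in 7). Summit folds, the ratio of the pileup at the peak's highest point to its local background, lay between 2.79 and 5.04. HDAC4 (chromosome 2, position 239401020) had a peak in 7 WT and 3 KO libraries, and in 4 esiCT and 6 esiHDAC4 libraries. Acetylation at a start site says nothing of whether the gene was deleted or its RNA silenced, and these values are therefore no check of the labels.

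Start-site regions recurred across libraries more than the rest. The median start-site region was called in 6 of 16 libraries and the median other region in 1. Only 17.2% of the start-site regions were called in a single library, against 63.3% of the others, and 43.9% against 9.83% were called in at least 8. Over all regions, those at start sites were also wider, with a median merged width of 1085 bp against 416 bp. Their median summit fold was higher, 4.14 against 3.61. The width difference changed direction when regions called in similar numbers of libraries were compared. Start-site regions were the wider in 1 library (363 against 340 bp) and in 2 to 5 (725 against 695 bp). They were the narrower in 6 to 10 libraries (1327 against 1483.5 bp). The same held in 11 to 15 (2266 against 2732 bp) and in all 16 (5454 against 6939 bp). The call rate was higher at start sites in all 16 libraries, from 2.58% against 1.70% in the shallowest to 78.6% against 30.0% in WT esiCT UNT replicate A.

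**Figure D1:**
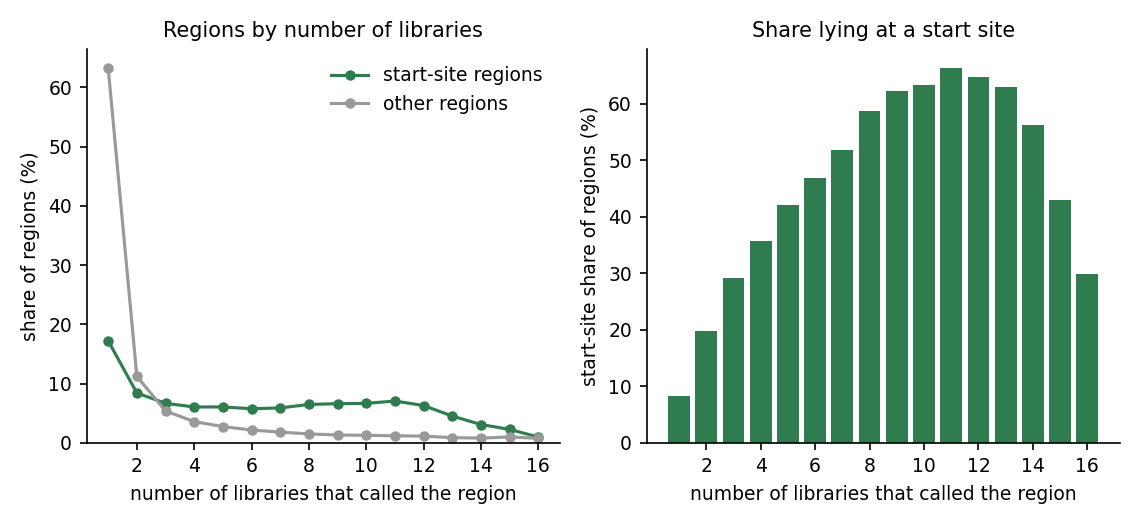
Left, share of start-site and of other regions (%) by the number of libraries that called them; right, share of regions lying at a start site (%) for each number of libraries. The start-site share climbs from 8.23% of regions called in 1 library to 66.3% of those called in 11, and is 29.9% of those called in all 16.

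The most constant regions were not mainly start sites. The start-site share was 8.23% among regions called in 1 library and reached 66.3% among those called in 11. It was then lower, 42.9% among regions called in 15 and 29.9% among the 472 called in all 16, of which 141 lay at start sites and 331 elsewhere. Regions called in all 16 were wide in both classes, with a median of 5454 bp at start sites and 6939 bp elsewhere, against 2266 and 2732 bp for regions called in 11 to 15. Their median summit fold was 5.67 at start sites and 5.88 elsewhere. The plot of libraries per region shows this rise and fall.

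Together these regions reached 12019 of the 19970 start sites (60.2%). A single library reached from 428 (2.14%) to 10726 (53.7%). Most regions served 1 start site (12754), while 1703 held 2 and 138 held 3 or 4. Regions with 2 start sites were called more often, with 53.1% in at least 8 libraries against 42.5% of those with 1, and were wider, with a median of 1240 against 1056 bp.

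Regions lay across the start site or beside it in similar measure. In all, 5409 of the 14595 regions held the start site itself. Of the 9253 start sites whose regions served no other gene, 48.8% lay inside a region, 24.8% had separate regions on both sides, 21.0% had one downstream alone and 5.37% one upstream alone. Where both sides were marked, the gap across the start site had a median of 368 bp and quartiles of 298 and 484 bp, over 2296 start sites. FBXW7, for example, had regions on both sides and none across its start site.

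Summits lay mostly downstream, in the direction of transcription. In each library 58.9% to 70.2% of the peaks at single start sites had their summit downstream, and the median distance was 244 to 564 bp downstream. Between 0.197% and 2.45% of summits fell within 100 bp of the start site. The profile of summits has a lower hump upstream and a higher one downstream in every library, and in letter B the downstream hump was lower and spread further, with 36.7% to 52.8% of summits between 100 and 1000 bp downstream against 57.2% to 61.8% in letter A. The groups of letters did not overlap in that share, and the median depth index was 1.74 in letter B and 2.12 in letter A. The part of depth in this difference was not tested.

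**Figure D2:**
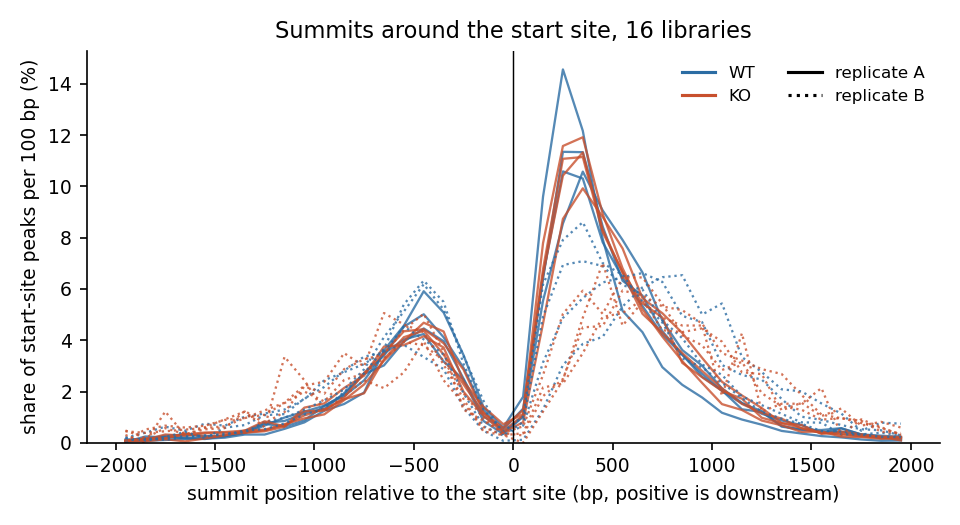
Share of start-site peaks (%) per 100 bp of distance between the peak summit and the start site, positive downstream, 1 line for each of 16 libraries, for regions with 1 start site. All lines dip at the start site and peak within 1000 bp downstream, and the dotted letter B lines are lower and broader there.

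Sequence around the start sites differed with the number of libraries that called them. In the 300 bases from 250 upstream to 50 downstream, the median ratio of observed to expected CpG was 0.383 for the 7951 start sites never called, 0.820 for those called in 1 to 5 libraries, 0.884 in 11 to 15 and 0.842 for the 171 called in all 16. CpG-rich windows, with a ratio over 0.6 and GC over 50%, made up 33.8% of the start sites never called, 90.6% of those called in 6 to 10 libraries and 73.1% of those called in all 16, against 65.4% of all start sites. These are descriptions of sequence classes, and start sites are not replicates.

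Motif letters were searched on both strands in the same windows, and motifs could share bases. The ETS motif CCGGAAG stood in 14.1% of all start sites, in 4.35% of those never called and in 23.8% of those called in 11 to 15 libraries. The TATA box went the other way, from 16.7% of those never called to 3.75% of those called in 6 to 10 libraries, but was in 16.4% of those called in all 16, against 9.73% of all start sites. The GC box GGGCGG was in 61.3% of all start sites, with 38.6% and 78.6% for never called and called in 6 to 10. The CCAAT box varied less, from 33.2% to 38.6% over the classes, and AP-1 (TGACTCA), the cAMP response element (TGACGTCA) and the NRF1 motif stood in 3.58%, 2.69% and 1.69% of all start sites.

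Gene groups differed in how often their start sites were called. Of 83 cytosolic ribosomal protein genes, 76 (91.6%) were called in at least 8 libraries and 38 in at least 14, against 35.8% and 5.73% of all start sites. Immediate early genes and AP-1 and ATF factors reached 16 of 18, and p53 targets 24 of 30, of which 14 were called in at least 14. Mitochondrial ribosomal proteins (61 of 78), proteasome subunits (31 of 39), complex I subunits (29 of 37) and translation initiation factors (42 of 55) were called in at least 8 libraries at similar shares, 76.4% to 79.5%, yet 6.41% to 12.8% of them were called in at least 14.

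The remaining groups ranged from well above to below all start sites. Homologous recombination genes reached 7 of 18 in at least 8 libraries, nucleotide excision and crosslink repair genes 8 of 20, DNA replication and G1/S genes 12 of 23, genes whose proteins FBXW7 binds 12 of 16, WNT targets 8 of 16, apoptosis genes 14 of 24 and class IIa HDAC and MEF2 genes 5 of 8. ZNF-named zinc finger genes reached 171 of 508, HOX genes 13 of 39, keratins 5 of 55, and none of 400 olfactory receptor genes. Replication-dependent histone genes were split: 23 of 69 were never called, and 12, or 17.4%, were called in all 16 libraries, against 0.856% of all start sites.

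The widest and strongest start-site regions called in all 16 libraries belonged to different kinds of genes. The widest were at CYB5B (34450 bp, upstream of this outer mitochondrial membrane cytochrome), BCL2L1 (33860 bp, an inhibitor of apoptosis), MYOF (24824 bp), ACSL5 (24721 bp, an acyl-CoA synthetase), RNF43 (22631 bp, a negative regulator of WNT receptors) and PLEC (20963 bp, plectin). Most bases lay in introns at MYOF (24237 bp), BCL2L1 (31295 bp), ACSL5 (22870 bp) and RNF43 (21513 bp). At CYB5B the whole region, and at PLEC 15030 bp of it, lay upstream of the canonical start site. In single libraries their peaks were narrower, with medians of 13764 to 21753 bp. The highest median summit folds were those of CYB5B (7.99), EREG (7.77, an epidermal growth factor receptor ligand), ITPRID2 (7.63), NTSR1 (7.58, the neurotensin receptor), DNMBP (7.40) and HMGA2 (7.28, a chromatin architectural protein).

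Few start-site regions lay in the deposited super-enhancers, which are long clusters of H3K27ac joined by the authors for each library. Per the paper, super-enhancers were considered only where H3K4me1, another histone mark, was present as well. Between 1.11% and 2.72% of a library's called start-site regions overlapped one, against 12.9% to 39.5% of its other called regions. The ranges did not overlap, and the start-site share was the lower in all 16 libraries. Whether the authors' joining or the requirement for H3K4me1 left out peaks near start sites was not tested.

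Genotype was compared first. WT libraries called 11472, 8652, 7977 and 7134 start-site regions in letter A (esiCT UNT, esiCT OXPT, esiHDAC4 UNT, esiHDAC4 OXPT) and 9458, 3047, 9246 and 5794 in letter B. KO libraries called 5034, 8563, 8206 and 6420 in letter A and 1604, 2497, 377 and 1844 in letter B. In letter A the genotypes overlapped, and in letter B every KO library lay below every WT library. The mean log2 difference was -1.30 (SD 1.53 in KO and 0.59 in WT, n = 8 each), with p = 0.00367 in a two-sided exact permutation test within letters and an adjusted p of 0.0417 over 16 such comparisons. Within letter A it was -0.33 (exact permutation p = 0.229) and within letter B -2.28 (p = 0.0286, the smallest exact p that 4 against 4 allow). The difference between the letters, -1.95, had an exact permutation p of 0.0571.

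**Figure D3:**
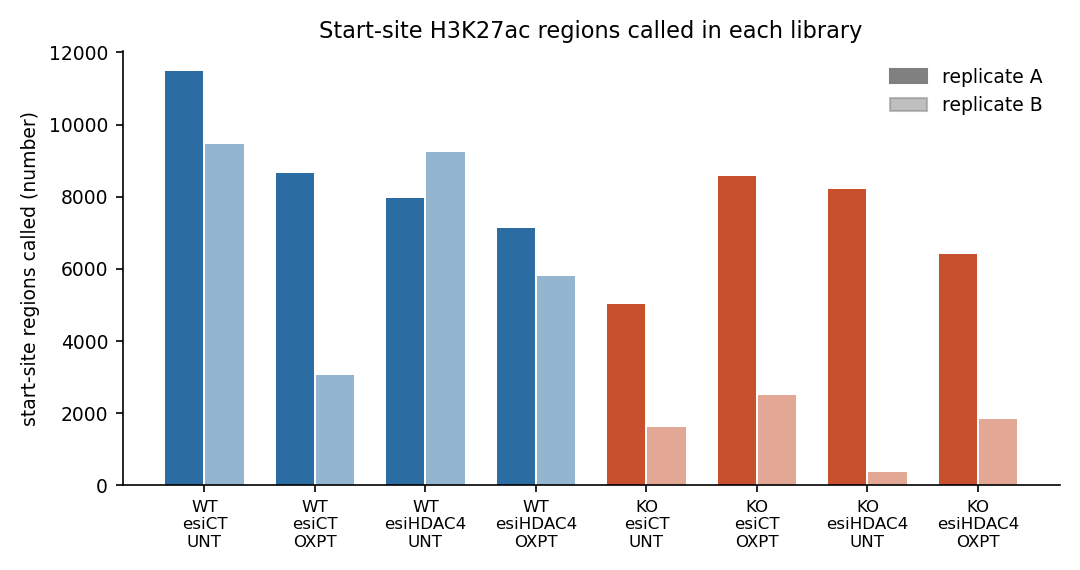
Number of start-site regions called in each of 16 libraries, blue for WT and red for KO, dark bars replicate A and light bars replicate B. The KO bars of replicate B, 377 to 2497, are the lowest, while the KO bars of replicate A, 5034 to 8563, overlap those of WT.

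The depth index was lower in KO, but the difference did not pass. The background index had a median of 1.52 in KO and 2.15 in WT libraries, a log2 difference of -0.42 (two-sided exact permutation p = 0.0657). The genotypes overlapped, with 1.02 to 2.89 in KO and 1.65 to 3.07 in WT. With peaks scaled to the shallowest depth the genotype difference was -0.84, and with the lists brought to equal length -0.36. At the shallowest depth KO and WT overlapped in both letters. KO libraries called 1297 to 4364 in letter A and 373 to 1946 in letter B, against 2919 to 8190 and 1086 to 3305 in WT. With equal lists they also overlapped, at 700 to 850 and 347 to 485 against 797 to 1083 and 440 to 721. The part of depth in the genotype difference beyond these values was not tested. The ratio of start-site to other regions called did not pass, at a log2 difference of -0.05 (exact permutation p = 0.630). This depended on the lists used, since the ratio was -0.36 with lists of equal length (exact permutation p = 0.0224) and -1.15 when 50% of a region had to be covered (p = 0.0122).

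Width was lower in KO in letter B, while in letter A the genotypes overlapped. In the 141 start-site regions called in all 16 libraries, the median width covered ranged from 404 bp in KO esiHDAC4 UNT replicate B to 4561 bp in WT esiCT UNT replicate A. Over both letters the log2 difference between KO and WT was -0.90 (exact permutation p = 0.0106, adjusted p = 0.0417), with -0.21 in letter A (p = 0.371) and -1.59 in letter B (p = 0.0286). In letter A the medians were 2417 to 3714 bp in KO and 3089 to 4561 bp in WT. The part of depth in the width difference was not tested. The median summit fold of the same regions was similar in size in both, 5.02 to 6.30 in KO and 4.93 to 7.40 in WT libraries, with a log2 difference of -0.07 (exact permutation p = 0.347).

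Region by region, 3 of the 141 start-site regions passed for genotype in limma (adjusted p under 0.05 over all 472 regions called in every library), 1 higher and 2 lower in KO, where 2.54% of all 472 regions passed. H4C2 lies on chromosome 6 and its region, from 26024792 to 26030920, contains the whole gene. Its summit fold was 5.29, 5.89, 6.29 and 5.70 in the WT libraries of letter A and 5.01, 5.65, 7.01 and 4.76 in those of letter B, in the order used above. In KO it was 2.91, 3.28, 3.20 and 3.23 in letter A and 4.85, 4.47, 3.68 and 3.38 in letter B. The groups overlapped only between the highest KO value, 4.85, and the lowest WT value, 4.76. The log2 difference, with each library centred on its median, was -0.61 (SE 0.11, limma adjusted p = 0.00648).

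MYOF also fell in KO. Its region on chromosome 10, from 93457870 to 93482693, holds the start site and 24237 bp of introns and had summit folds of 6.13 to 11.3 (median 8.50) in WT and 5.59 to 8.23 (median 6.04) in KO. The groups overlapped, and the log2 difference was -0.43 (SE 0.10, limma adjusted p = 0.0338).

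The region that rose lies at the divergent histone genes H2AC15 and H2BC15 (chromosome 6, 27834821 to 27838296). It covers 417 bp of H2AC15 and 3059 bp past the end of that gene, none of H2BC15, and neither start site. Its summit fold was 2.69 to 6.51 (median 3.92) in WT and 3.77 to 7.25 (median 5.45) in KO, and the log2 difference was 0.46 (SE 0.11, limma adjusted p = 0.0268). Histone genes have near-identical copies, and no source used here says how reads with several matches were placed, which leaves both histone values uncertain. Next in order by p, and not passing, were CDKN1A (0.34, adjusted p = 0.0991) and ATN1 (0.31, adjusted p = 0.116) with higher and PPP1R9B (-0.37, adjusted p = 0.0612) with lower values in KO, all by limma.

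**Figure D4:**
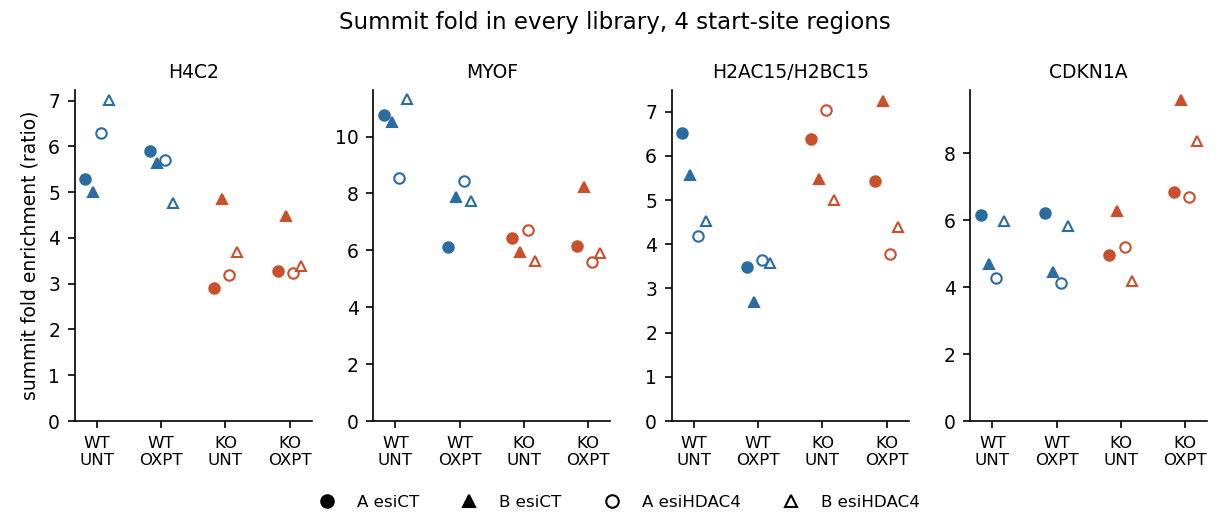
Summit fold enrichment (ratio of summit pileup to local background) at 4 start-site regions in each of 16 libraries, blue for WT and red for KO, circles replicate A, triangles replicate B, filled esiCT and open esiHDAC4. At H4C2 the KO libraries sit between 2.91 and 4.85 and the WT libraries between 4.76 and 7.01, and at CDKN1A the KO OXPT libraries sit between 6.68 and 9.60.

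With the shallowest library left out, 408 start-site regions were called in all the other 15, and 4 passed for genotype, where 0.982% of 1120 regions passed. H4C2 and H2AC15/H2BC15 passed again. CRKL, an adaptor protein in kinase signalling, had a summit fold of 3.05 to 5.10 in WT and 5.06 to 7.44 in KO, a log2 difference of 0.59 (SE 0.13, limma adjusted p = 0.0322). The HOXB7/HOXB8 region, at developmental transcription factor genes, had 5.12 to 9.05 in WT and 3.29 to 5.31 in KO, a difference of -0.52 (SE 0.11, limma adjusted p = 0.0322). MYOF no longer passed.

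Whether a region was called at all was compared for the 20090 regions called in 3 to 13 libraries, 9931 of them at start sites, by a two-sided exact conditional test within letters. After adjustment 0 of 9931 start-site regions passed for KO against WT (0% of all regions tested, smallest adjusted p = 0.208). At an unadjusted exact p under 0.05, 1307 start-site regions (13.2%) were called in fewer KO libraries, against 13.6% of all regions tested, and 1 was called in more, against 0.0747%. The start-site share was thus near that of all regions.

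Of the 1307, 11 were called in all 8 WT and in no KO library, KO letter A included. They were 0.111% of the start-site regions tested, and 0.144% of all regions tested had this pattern. Among them were the regions at SDC3, KSR2, SNAPC1, ALOXE3, MPP3, TECR, SLC35E1, TRIB3, POC1A and KDM4C, each with an exact p of 4.08e-04, the smallest the design allows. MPP3, a membrane scaffold of the MAGUK family, had summit folds of 3.40 to 6.71 in WT. ALOXE3, a skin lipoxygenase, had 2.91 to 6.43, and TECR, a reductase of very-long-chain fatty acid synthesis, had 3.81 to 6.67. TRIB3 is a stress-induced pseudokinase and KDM4C a histone demethylase. The 1 region called more often in KO was at FAM43A, with 4.27, 4.30, 4.70 and 5.45 in the 4 KO libraries of letter A and no call in KO letter B or in WT. ZNF684 and ENSG00000290183, each called in 4 KO and no WT libraries, came next with an exact p of 0.0714.

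The genes whose proteins FBXW7 binds were not called more often in KO. Of 15 with a start-site region, 14 were called in fewer KO than WT libraries, none in more, against 10263 of 12019 (85.4%) and 706 (5.87%) of all start sites called. MYC, HIF1A and SREBF1 were called in 8 WT and 7 KO libraries each, NOTCH1 in 7 and 4, JUN in 7 and 2, and KLF2 in 6 and 0. In matched pairs of libraries that both called the region, with each pair centred on the median of all start-site regions, the summit fold of 6 of 10 was higher in KO, with a median log2 difference of 0.01.

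The number of start-site regions did not pass for oxaliplatin. The mean log2 difference was 0.06 (exact permutation p = 0.922), and 3 of 8 matched pairs were higher after OXPT. In WT all 4 pairs fell: from 11472 to 8652, from 7977 to 7134, from 9458 to 3047 and from 9246 to 5794. In KO esiCT cells both pairs rose, from 5034 to 8563 and from 1604 to 2497, while in KO esiHDAC4 cells one fell from 8206 to 6420 and the other rose from 377 to 1844. The response of KO minus that of WT was 1.55 on the log2 scale (mean 0.84 ± 1.09 SD in KO and -0.72 ± 0.64 SD in WT, n = 4 pairs each), with an exact permutation p of 0.0571, where 0.0286 is the smallest possible.

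Summit fold was lower after OXPT. The median fold of the 141 start-site regions was 5.02 to 7.40 in UNT and 4.93 to 6.01 in OXPT libraries, so the groups overlapped. It was lower after OXPT in 6 of 8 pairs, with a log2 difference of -0.17 (exact permutation p = 0.0135, adjusted p = 0.0417). In WT all 4 pairs were lower after OXPT, with log2 differences of -0.42 and -0.22 in letter A and -0.40 and -0.27 in letter B (esiCT and esiHDAC4). In KO the pairs were -0.00217 and -0.24 in letter A and 0.0904 and 0.0670 in letter B, and the difference between the genotypes was not tested. Within letter A the difference was -0.22 (exact p = 0.0286) and within letter B -0.13 (p = 0.257). Over every start-site region that a library called, instead of these 141, it was -0.09 (exact permutation p = 0.0547).

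Against that background no single region passed for OXPT in limma (0 of 141, smallest adjusted p = 0.251, and 0% of all 472). At an unadjusted p under 0.05 there were 9 of 141, 2 higher and 7 lower. CDKN1A, which encodes the cyclin-dependent kinase inhibitor p21 and is a classic p53 target, was the first by p. Its region (chromosome 6, 36674711 to 36680443) spans 4003 bp before the canonical start site and 1645 bp of intron. In WT its summit fold was 6.16, 4.29, 4.68 and 5.98 untreated and 6.22, 4.13, 4.45 and 5.82 after OXPT, in the order esiCT A, esiHDAC4 A, esiCT B and esiHDAC4 B. In KO it was 4.97, 5.19, 6.29 and 4.18 untreated and 6.84, 6.68, 9.60 and 8.35 after OXPT. Within each WT pair the values were close, while every KO OXPT value lay above every KO UNT value.

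In the centred fit the CDKN1A difference for OXPT was 0.43 (SE 0.12, limma adjusted p = 0.251), and the KO minus WT response was 0.35 (SE 0.24, limma adjusted p = 0.963). Neither passed. ABCC2, a drug efflux transporter, was next at 0.39 (limma adjusted p = 0.523), followed by SHC1/CKS1B at 0.27 (adjusted p = 0.740). Lower and not passing were PHC2 (-0.34), H2AC15/H2BC15 (-0.28) and the H3C4/H2AC7/H2BC7 region (-0.26), each with limma adjusted p = 0.610. In the fit without the shallowest library 1 of 408 passed, where 0.357% of 1120 did. This was TRIM55, a muscle ring finger gene on chromosome 8, with 3.22 to 5.73 in UNT and 5.17 to 8.72 in OXPT libraries, a log2 difference of 0.65 (SE 0.13, limma adjusted p = 0.0192).

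Relative to all start-site regions, those of p53 targets were mostly higher after OXPT. This list, like the others, was chosen with earlier results of these data known, and no test of it was made. In the matched pairs that both called the region, centred on all start-site regions, 22 of 24 p53 target regions with at least 3 such pairs had a higher median summit fold after OXPT. Their median log2 difference was 0.25, against -0.01 over 5842 start-site regions, of which 47.5% were higher. The largest medians were at TRIAP1 (0.59, higher in 4 of 4 pairs), TP53INP1 (0.55, 6 of 6), DDB2 (0.54, 5 of 6), TNFRSF10B (0.49, 5 of 5), CCNG1 (0.47, 2 of 3), FAS (0.39, 3 of 4), FDXR (0.37, 5 of 7) and CDKN1A (0.37, 8 of 8). Before centring, the CDKN1A fold rose in the KO pairs and in WT esiCT A and fell in the other WT pairs. TNFRSF10B encodes a death receptor and DDB2 a sensor of DNA damage. GADD45A (-0.06) and MDM2 (-0.04), the ubiquitin ligase of p53, were the 2 that were not higher. PMAIP1 (0.03, 3 of 6) and BBC3 (0.13, 3 of 6), which encode the cell death proteins NOXA and PUMA, were called in 6 UNT and 8 OXPT libraries each.

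By pair, the median over p53 target regions was 0.26 and 0.25 in WT letter A (esiCT and esiHDAC4), 0.35 and 0.28 in KO letter A, 0.14 and 0.03 in WT letter B, and -0.07 and 0.40 in KO letter B, where only 8 and 2 regions were called in both libraries. The median was above 0 in 7 of 8 pairs, among them KO esiHDAC4 B, where 1 region was higher and 1 lower. In WT pairs 21 of 24 regions were higher and in KO pairs 18 of 20. Letter A gave 23 of 24 and letter B 11 of 17.

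**Figure D5:**
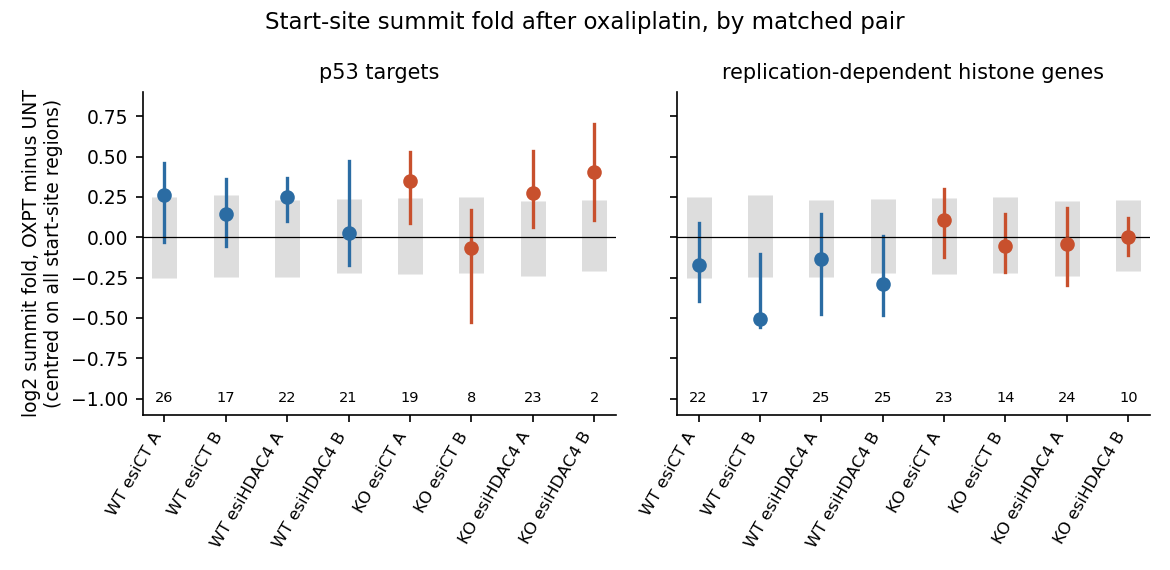
Log2 summit fold of OXPT minus UNT, centred on all start-site regions, for the regions of p53 targets (left) and replication-dependent histone genes (right) in 8 matched pairs; points are medians, lines quartiles, grey bars the quartiles of all start-site regions, and numbers below count regions called in both libraries of the pair. The p53 median lies above 0 in 7 of 8 pairs, among them KO esiHDAC4 B with only 2 regions. The histone median lies between -0.51 and -0.13 in the 4 WT pairs and between -0.06 and 0.11 in the 4 KO pairs.

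p53 targets were also called more often after OXPT. Of 29 p53 targets with a start-site region, 23 were called in more OXPT than UNT libraries, 4 in equal numbers and 2 in fewer, while of all 12019 start sites called 23.8% were called in more and 52.2% in fewer. The shallowest library is untreated and adds to such counts at start sites that most libraries call. Among start sites called in 11 to 15 libraries, 18 of 21 p53 targets and 40.3% of all 4043 were called in more OXPT libraries. Without the pair that holds that library these were 13 of 21 and 23.1%, and 18 of all 29 p53 targets were called more often after OXPT. In WT 6 of 28 were called in more OXPT libraries and 4 in fewer, and in KO 21 of 28 and 0. Of all start sites called in that genotype, 5.89% were called in more and 65.2% in fewer OXPT libraries in WT, and 47.9% and 18.5% in KO.

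Histone gene regions were mostly lower after OXPT in WT cells. Over the replication-dependent histone regions the centred median was -0.17 and -0.13 in WT letter A and -0.51 and -0.29 in WT letter B, so that 20 of 24 regions were lower after OXPT. In KO the pair medians were 0.11, -0.04, -0.06 and -0.00, and 12 of 22 regions were lower. The medians of the genotypes did not overlap. No test of this difference was made, since the genes were not chosen apart from these data. Cytosolic ribosomal proteins had 49 of 76 regions higher after OXPT, with a median of 0.08, 39 of 77 in WT pairs and 46 of 67 in KO pairs.

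Other lists had centred medians of fold from -0.12 to 0.07 after OXPT, against -0.01 over all start sites. The centred median was 0.07 for colorectal markers (6 of 8 higher), 0.07 for DNA replication genes (6 of 11), 0.02 for homologous recombination genes (3 of 6), 0.07 for excision and crosslink repair genes (5 of 8), -0.02 for genes of FBXW7-bound proteins (5 of 11), -0.10 for WNT targets (2 of 8), 0.05 for immediate early genes (9 of 15), -0.12 for class IIa HDAC and MEF2 genes (1 of 4) and 0.05 for apoptosis genes (8 of 12). It was 0.04 for mitochondrial ribosomal proteins (28 of 50), -0.06 for proteasome subunits (12 of 29), -0.03 for complex I subunits (11 of 25), 0.03 for translation initiation factors (22 of 40) and 0.03 for zinc finger genes (77 of 131).

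In calls, no start-site region passed for OXPT (0% of all 20090, smallest adjusted p = 1). At an unadjusted exact p under 0.05, 59 of 9931 (0.594%) were called in fewer OXPT libraries, against 0.692% of all regions tested, and 5 (0.0503%) were called in more, against 1.43%. Of the 287 regions called in more OXPT libraries 282 lay away from start sites, where 2.78% of the regions tested were such. Start-site regions were thus rare among those called more often after OXPT.

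The 5 regions were at ABCA12, CEL, TRIAP1/GATC, TFAP2E and SRA1. ABCA12, a lipid transporter, was called in no UNT and 6 OXPT libraries with summit folds of 2.47 to 4.24, and CEL, bile salt-activated lipase, in no UNT and 5 OXPT libraries. TRIAP1/GATC was called in all 8 OXPT libraries, with 4.84, 5.22, 5.94 and 8.27 in letter A and 2.96, 3.60, 5.24 and 4.71 in letter B. In UNT it was called in the 4 libraries of letter A alone, with 3.55, 4.97, 4.28 and 3.75. Each OXPT value of letter A exceeded its untreated partner, and the start site of TRIAP1 lies inside the region, downstream of the 59 bases printed above.

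Among the 59 called less often, the smallest exact p was that of PKN2, a protein kinase, with 7 UNT and no OXPT libraries (p = 0.00204). PLK1, a kinase that drives entry into mitosis, was called in 6 UNT and no OXPT libraries. Its summit fold was 5.28, 4.96, 5.41 and 4.63 in letter A and 5.01 and 4.97 in WT letter B. The shared region of MZT1 and BORA, genes of a spindle microtubule factor and of an activator of PLK1, had the same pattern of 6 and 0. None passed adjustment.

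HDAC4 silencing was compared next. The log2 difference in start-site calls was -0.27 (exact permutation p = 0.678), in width -0.24 (p = 0.605), in summit fold -0.07 (p = 0.397) and in the start-site to other ratio -0.07 (p = 0.492). No region passed in limma over all libraries (0 of 141, 0% of 472, with 5 of 141 at an unadjusted p under 0.05) or within OXPT-treated KO cells (0 of 141, 0% of 472, with 4 of 141). RPL23A (0.39), ZMYND8 (0.39, a reader of acetylated histones) and MTFP1 (0.23) had the smallest p among higher and SLC16A3 (-0.32, a lactate exporter), TNRC18 (-0.24) and ERI1 (-0.22) among lower values, with limma adjusted p of 0.846 or 0.867. In KO OXPT cells the corresponding regions were TRIB1 (0.53), ANP32A (0.46) and TRIM8 (0.54), and POLD4 (-0.54), ERI1 (-0.52) and H2AC15/H2BC15 (-0.43), each with limma adjusted p = 0.828. The median SE of a region's difference within KO OXPT cells was 0.22 on the log2 scale. PMAIP1 and BBC3, each called in 14 libraries, were not in this fit. In KO OXPT cells the PMAIP1 fold was 5.03 with esiCT and 3.77 with esiHDAC4 in letter A, and 3.99 and 3.45 in letter B. For BBC3 these values were 3.87 and 3.92, and 3.99 and 4.71. Over all matched pairs the centred median for esiHDAC4 was -0.15 at PMAIP1 (higher in 3 of 7) and 0.29 at BBC3 (6 of 7).

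For calls, 0 of 9931 start-site regions passed (0% of all tested, smallest adjusted p = 1). At an unadjusted exact p under 0.05, 1 start-site region was called in more esiHDAC4 libraries, against 0.0348% of all tested, and 14 in fewer, against 0.184%. The 1 was at FAF2 (5 and 0 libraries), and C6orf15/PSORS1C1 (8 and 4) and RALGDS (5 and 1) came next with an exact p of 0.0714 each. The first of the 14 were at SLC17A9, a nucleotide transporter (0 and 6), PRXL2C and CDCA8, a subunit of the mitotic chromosomal passenger complex (0 and 5 each).

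The response to OXPT was also compared between genotypes region by region, and 0 of 141 passed (0% of 472, smallest adjusted p of a start-site region = 0.810, with 5 at an unadjusted limma p under 0.05). ITPRID2 (0.55), PARP4 (0.55) and the H3C2/H2AC4 region (0.38) were highest by p, and BAHCC1 (-0.51), LTBP3 (-0.48) and ENO1 (-0.50) lowest, with limma adjusted p between 0.810 and 0.963.

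The replicate letters were compared last. Letter B called fewer start-site regions in 7 of 8 groups, with a log2 difference of -1.44 (two-sided exact permutation p = 0.0156, adjusted p = 0.0417). The exception was WT esiHDAC4 UNT, with 7977 in A and 9246 in B. Widths were lower by -1.04 (exact p = 0.0234, adjusted p = 0.0536) and summit folds by -0.12 (exact p = 0.0156, adjusted p = 0.0417). The start-site to other ratio was lower in B in all 8 groups, by -0.39 (exact p = 0.00781, the smallest possible, adjusted p = 0.0417). It was 0.787 to 1.04 in A and 0.5 to 0.760 in B, apart from WT esiCT UNT B with 0.855.

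Calls at start sites were shared well between the letters of a group when read from B. Of B's start-site calls 71.0% to 92.8% were also in A, against 40.2% to 70.7% of B's other calls. The letter A libraries called 34.5% to 78.6% of all start-site regions and 10.9% to 30.0% of the others. The part of these call rates in the sharing was not tested. Of A's start-site calls 4.27% to 82.3% were in B. Region by region 1 of 141 passed between the letters in limma (0.424% of 472): PRKACB, a catalytic subunit of protein kinase A, with 4.11 to 6.30 in A and 4.59 to 10.9 in B, a log2 difference of 0.49 (SE 0.11, limma adjusted p = 0.0423). LZTS2 and KLRC2 were the next higher and CITED2, CLOCK and CHTOP the next lower in B, and did not pass. Without the shallowest library 3 of 408 passed (0.804% of 1120), PRKACB higher and IER5L (-0.55) and RCC2 (-0.52) lower in B.

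RNF43 and NR4A2, genes with wide regions at their start sites, overlapped between the genotypes. RNF43 was called in all 16 libraries, with a summit fold of 4.53 to 8.28 in WT and 5.79 to 9.36 in KO. For esiCT in letter A, its fold was 6.91 untreated and 4.87 with OXPT in WT, against 6.90 and 9.36 in KO. In letter B it was 8.28 and 5.61 in WT and 7.29 and 7.63 in KO. With esiHDAC4 every pair of both genotypes was lower after OXPT. KO cells with esiHDAC4 and OXPT had 6.15 in A and 5.79 in B. In limma 0 of the 141 fitted regions, RNF43 included, passed for the OXPT response by genotype or esiHDAC4 in KO OXPT cells. The esiCT values alone were not tested. NR4A2, an orphan nuclear receptor, was called in 15, with 5.17 to 8.01 in WT and 4.58 to 7.61 in KO. In both the region spans more than 10 kb, 22631 and 13761 bp, which sets them apart from the median start-site region of 1085 bp.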

How the data were processed

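H3K27ac ChIP-seq peak lists of 16 HCT-116 libraries were analysed, and 4 input samples were not used here. Per the submitters' processing notes and methods, the authors used Trimmomatic 0.39 for trimming, Bowtie2 2.4.4 for alignment to hg38, SAMtools 1.18 for read files and MACS2 2.2.7.1 for peaks. No source used here names the control given to MACS2. The deposited lists hold for each peak a summit fold enrichment, which is a ratio, a −log10 p-value and −log10 q-value, and a display score. Of 272083 deposited peaks 534 on unplaced or other contigs were dropped. The lists give no read totals; the background in reads was solved from each deposited fold and −log10 p-value under a Poisson model, and covers counting error only.

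Peaks were merged by 1 bp, and start sites were the canonical ones of GENCODE version 44. The number called, the median width and the median fold of regions called in every library, and the ratio of start-site to other calls were compared on the log2 scale by two-sided exact permutation within replicate letters, following the study's replicate term, and adjusted over 16 comparisons. Calls per region used an exact conditional test for regions called in 3 to 13 libraries. Log2 folds, centred on each library's median, were fitted with limma 3.58.1 (R 4.3.3) with the letter as a replicate block and Benjamini-Hochberg adjustment. Python 3.11.15, numpy 2.4.6, pandas 2.3.3, scipy 1.17.1 and matplotlib 3.10.9 were used. On simulated data for KO against WT, with 100 of 472 regions changed, 82% were recovered at a log2 change of 0.5 and 100% at 1. Each run gave 3 false calls. The simulated noise was independent between libraries, held no letter or depth shift, and covered no other contrast.

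Regions named were those past adjusted p of 0.05, or the 3 of smallest p in each direction where fewer passed, the 3 of smallest p for calls, the 6 widest, the 6 of highest fold, and 6 fixed genes. Members follow from position alone, but the regions and gene lists were chosen with earlier results of these data known. The name of 1 region is not reported here.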

Additional observations from a re-analysis of the deposited data

Results flagged for a closer look

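In esiCT cells both KO pairs called more start-site regions after OXPT (log2 0.77 in letter A and 0.64 in letter B) and both WT pairs fewer (-0.41 and -1.63), a difference of 1.72. Over both esiRNAs the difference of responses was 1.55 with an exact permutation p of 0.0571. Widths did the same in esiCT cells, with 0.62 and 0.10 in KO and -0.45 and -1.59 in WT, a difference of 1.37, which was not tested. The median summit fold of KO minus WT in esiCT cells was 0.12 and 0.21 after OXPT and -0.30 and -0.28 untreated, a difference of 0.46, which was not tested. Each stands here because every pair of one group moved one way and every pair of the other the opposite way.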

How the results depend on the processing

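Of 602 alternative values, 507 counted as unchanged. For the permutation tests this meant the same direction and side of the threshold. For counts of regions it meant a count within 1.5 times the main one. The lower KO call rate was unchanged in this sense without any single library (-1.48 to -1.01). In letter A alone it was -0.33, and the KO width difference there was -0.21, and neither passed. The OXPT call rate turned to -0.11 with lists of equal length, -0.0897 with 50% of the region covered, -0.39 scaled to the shallowest depth and -0.0390 in letter A, and ranged from -0.42 to 0.36 without single libraries (below 0 without KO esiCT UNT A or B, WT esiHDAC4 OXPT B or KO esiHDAC4 UNT B). Without single libraries the esiRNA call rate ranged from -0.59 to 0.18 and its width from -0.49 to 0.0630 (both above 0 without KO esiHDAC4 UNT B), the OXPT width from -0.49 to 0.0774 (above 0 without WT esiCT UNT B or WT esiHDAC4 UNT B) and the genotype ratio from -0.0932 to 0.00762 (above 0 without KO esiHDAC4 UNT B). The genotype fold was 0.0294 over every called region and 0.0443 in summit reads per background read, an alternative chosen after seeing the data. The OXPT fold no longer passed over every called region (-0.0911) or in letter B (-0.13), nor did the letter fold with no replicate block (-0.12, exact permutation p = 0.125), over every called region (-0.00674) or in summit reads per background read (-0.0449). The genotype ratio was 0.20 with the start site inside the region, 0.0628 in letter A, -0.36 with equal lists and -1.15 with 50% covered, the last 2 passing. The OXPT ratio was 0.0229 with the start site inside, 0.0203 with 50% covered and 0.0578 in letter B, and the letter ratio -0.13 with the start site inside. At a −log10 q of at least 10, start-site regions with an unadjusted exact p under 0.05 numbered 25 for genotype, 13 for OXPT and 1 for esiRNA, against 1308, 64 and 15. At that limit KO esiHDAC4 UNT B called 0 start-site regions, so the 4 measures per library gave no value. Without single libraries these counts were 1327 to 2673 (over 1.5 times without WT esiCT OXPT B, KO esiCT OXPT A or KO esiHDAC4 UNT A), 76 to 373 (highest without KO esiHDAC4 UNT B) and 30 to 85. In limma, genotype gave 10 regions among those called in at least 14 libraries and 1 to 5 without single libraries (1 without WT esiHDAC4 OXPT A, WT esiCT OXPT B or KO esiHDAC4 OXPT B; 5 without WT esiCT UNT A or KO esiCT UNT A). OXPT gave 1 at 14 libraries and 1 without the shallowest library, an alternative chosen after seeing the data. The letter gave 3 with no centring, 0 with quantile normalization, 2 at 14 libraries, 0 with no replicate block, 4 in summit reads per background read, 3 without the shallowest library and 0 to 3 without single libraries (3 without KO esiHDAC4 OXPT A or B). The OXPT response of KO minus WT ranged from 1.07 to 1.95 (passing without KO esiHDAC4 UNT A or OXPT A) and the genotype difference between letters from -2.61 to -1.17 (passing without WT or KO esiCT OXPT B). Leaving out the replicate block changed no other call. The causes were not tested.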
